A study of Mus musculus with 24 samples.

Results

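The addition of C5aR1 blockade to a dual treatment was examined in wild-type mice bearing Lewis Lung Cancer tumours, which grow from a mouse line labelled as lung adenocarcinoma. The triple tumours (8) received poly I:C, antibody to PD-1 and the C5aR1 antagonist PMX53. The dual tumours (8) received poly I:C and the same antibody. A further 8 tumours received vehicle and enter here through the shared estimate of spread, so 16 of the 24 tumours and all 18723 genes of the deposited table are compared. PMX53 was given under the skin every day from day 6 at 1 mg/kg. Anti-PD-1 was injected into the peritoneum at 100 µg on days 7, 10 and 14, and poly I:C into the tumour at 50 µg on days 11 and 15. Both groups therefore share the double-stranded RNA and the checkpoint antibody, and they differ by PMX53. The design has no tumours given PMX53 alone, and the labels name no vehicle for PMX53 in the dual group. All tumours came from 1 cell line. Each mouse number occurs once, so tumours were not paired. Library numbers ran from 41 to 48 in triple tumours and from 33 to 40 in dual tumours, so a library batch and the treatment cannot be told apart.

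C5aR1 is the main receptor of C5a, the small fragment released when complement protein C5 is cleaved. It is carried by neutrophils, monocytes and macrophages, and C5a draws these cells towards it and activates them. In mouse tumours C5a is known for recruiting suppressive myeloid cells. Poly I:C is a synthetic double-stranded RNA sensed by Tlr3 and by cytosolic helicases, and PD-1 is an inhibitory receptor of T cells. PMX53 blocks the receptor protein, so the RNA level of C5ar1 does not report whether the receptor was blocked.

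The triple tumours differed widely among themselves. Triple tumours had 15671388 to 19254090 reads in genes and dual tumours 14535983 to 19046105. Levels are given as log2 CPM, which are reads relative to a scaled library size, on a log2 scale. The read total divided by this scaled size was 0.9763 to 1.136 in triple tumours, highest in T_352_S48. It was 0.9863 to 1.035 in dual and 0.9323 to 0.9983 in vehicle tumours. The median gene had an SD of 0.453 log2 CPM over triple tumours, 0.294 over dual and 0.248 over vehicle tumours. The spread was wider in triple than in dual tumours for 74.8% of genes. Tumour T_352_S48 had the highest and T_331_S44 the lowest mean level of several immune and stromal gene lists among triple tumours. In bulk tumours, more cells of a type and more RNA per cell cannot be told apart. The labelled lung identity was checked with 10 lung epithelial genes: 3 are in the table, and the surfactant protein genes and Nkx2-1, a lung lineage factor, are not among them.

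Shares of reads in marker genes of muscle, adipocytes and keratinocytes also differed. Whether these reads came from tissue around the tumour was not tested. The 22 skeletal muscle genes took 0.0279% to 0.289% of reads in triple tumours, with a median of 0.146%, against 0.0277% to 0.106% with a median of 0.0584% in dual tumours. Means were 0.141% ± 0.0875 in triple and 0.058% ± 0.0267 in dual tumours (SD, n = 8 each), a difference of 0.0828 percentage points (exact permutation test, two-sided, p = 0.0208). The share in 5 triple tumours (T_352_S48, T_353_S45, T_354_S47, T_355_S43 and T_362_S42) exceeded that of every dual and vehicle tumour, and T_331_S44 lay at the bottom of the dual range. The 10 measured adipocyte genes took 0.00979% to 0.102% in triple tumours, median 0.0347%, and 0.0095% to 0.0194% in dual tumours, median 0.0133%. Lpl and Cd36 had the most of these reads, with medians of 3333.5 and 1756 in triple and 1278 and 524 in dual tumours. Adipoq had medians of 12 reads in triple and 15 in dual tumours, and 3 of the 10 genes were called higher. The 10 measured keratinocyte genes took 0.000617% to 0.0162% in triple tumours, median 0.00157%, and 0.000475% to 0.000682% in dual tumours, median 0.000544%. In vehicle tumours they took 0.000656% to 0.00133%, median 0.000964%. Every difference was therefore also computed with the muscle score of each tumour as a covariate, and in the 3 other triple tumours against the 8 dual tumours. Of all 4007 calls, 8 were kept with the covariate and 2 in the 3 other triple tumours. Of 87 called genes checked, 80 lost their call with the covariate, and Ppl, Serpinb10, Inpp5j, Prxl2a, Crybb1, Ccl22 and Mgl2 kept it. Genes that kept a call were partly chosen for that, so their share among the 87 does not describe all calls. In the 3 other triple tumours 86 of the 87 lost their call, all but Ppl.

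**Figure D1:**
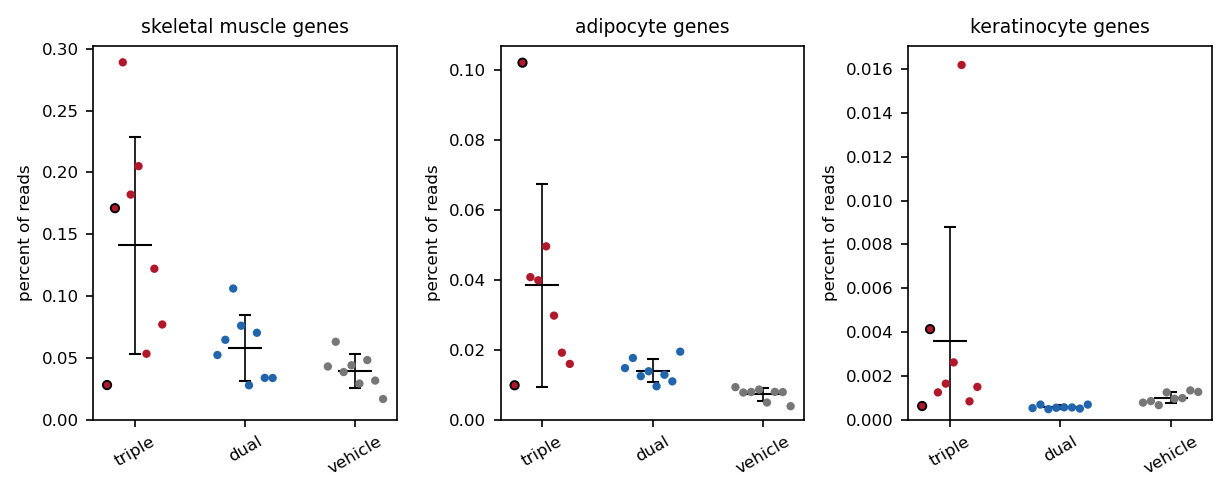
Percent of reads in skeletal muscle, adipocyte and keratinocyte genes for each triple, dual and vehicle tumour. Points are tumours, lines the mean and SD (n = 8), and black outlines mark T_331_S44 and T_352_S48. The muscle share reaches 0.289% in triple tumours and 0.106% in dual tumours.

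The receptor blocked by the drug was itself higher at the RNA level in triple tumours. C5ar1 (GRCm39 chromosome 7) had 5.45 to 8.25 log2 CPM in triple tumours, with a median of 6.79, against 5.46 to 6.10 with a median of 5.70 in dual tumours. It stood above the dual median in 7 triple tumours, and the groups overlapped through T_331_S44, which was as low as the lowest dual tumour, and T_363_S41. The difference was 0.97 ± 0.26 (log2 fold change ± SE, limma, adjusted p = 0.0140). It was 0.57 with the muscle score as covariate (adjusted p = 0.240) and 0.20 in the 3 triple tumours not rich in muscle reads (adjusted p = 0.748). With the triple and dual tumours fitted alone it had an adjusted p of 0.0560.

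C3ar1, the receptor of the related fragment C3a, had 6.54 to 9.33 log2 CPM in triple tumours, median 7.85, and 6.41 to 7.02 in dual tumours, median 6.60. It rose by 1.07 ± 0.26 (adjusted p = 0.00971), again with overlap and with 7 triple tumours above the dual median. C3, the complement protein at which the activation pathways meet, had 7.94 to 11.5 log2 CPM in triple tumours, median 9.41, and 7.05 to 8.95 in dual tumours, median 8.17. It rose by 1.38 ± 0.39 (adjusted p = 0.0176), and 5 triple tumours lay above every dual tumour. With the muscle score as covariate C3ar1 differed by 0.71 (adjusted p = 0.174) and C3 by 0.68 (adjusted p = 0.3). In the 3 triple tumours not rich in muscle reads they differed by 0.37 (adjusted p = 0.518) and 0.45 (adjusted p = 0.738). With the triple and dual tumours fitted alone C3ar1 had an adjusted p of 0.0465 and C3 of 0.0509. C5ar2, the other C5a receptor, differed by 0.63 ± 0.28 (adjusted p = 0.0965), and Hc, which encodes C5, by -0.08 ± 0.50 (adjusted p = 0.917) at levels near -0.76 log2 CPM in triple and -0.93 in dual tumours. Of 12 measured initiators of the classical, lectin and alternative pathways, 3 rose and 1 fell. Over all genes 11.4% were called higher and 9.97% lower, so 1 decrease in 12 is near the share of all genes. The initiator that fell was Masp1, a serine protease of the lectin pathway, at -0.64 ± 0.20 (adjusted p = 0.0299), below the dual median in all 8 triple tumours. It lost its call without any 1 of 6 tumours, T_352_S48 among them (highest adjusted p = 0.0697). None of 9 complement regulators passed the test.

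Over all genes, 2140 were higher in triple tumours (11.4% of 18723) and 1867 were lower (9.97%) at an adjusted p under 0.05. Increases were larger than decreases. The median called increase was 0.89 and the median called decrease -0.40 on the log2 scale, while the median of all genes was -0.004. At least 2-fold changes numbered 898 increases and 112 decreases. Centring each tumour on its median gene moved the median difference to -0.10 and changed the split to 1724 higher and 2976 lower, and quantile normalization gave 1792 higher and 2414 lower. The triple and dual tumours fitted alone gave 806 higher and 568 lower, and the adipocyte score as covariate 912 and 653. With the muscle score as covariate 6 genes were higher and 3 lower (0.0481% of genes), both scores together gave 431 higher and 305 lower, and the 3 triple tumours not rich in muscle reads gave 2 higher and 0 lower. Leaving out 1 tumour moved these counts by over 1.5 times for T_331_S44 (3598 higher and 3075 lower without it), T_352_S48 (1311 and 1160), T_353_S45 (1343 and 1081) and, for the decreases, D_344_S33 (1533 and 1193). Unadjusted p-values under 0.05 numbered 7161, 3159 and 1794 in the fit of all tumours, the covariate fit and that smaller set.

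**Figure D2:**
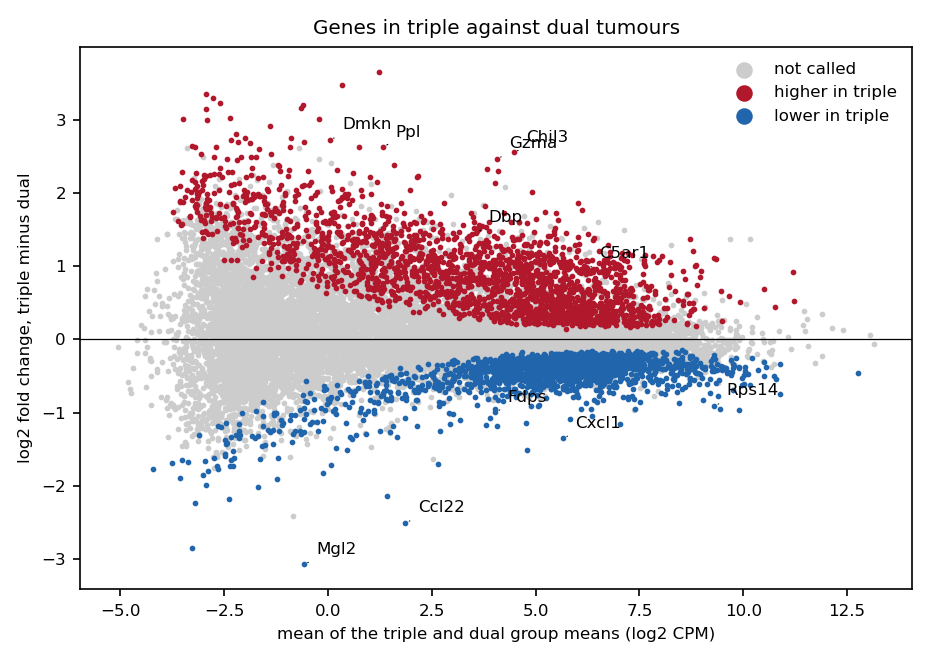
Log2 fold change of each of 18723 genes, triple minus dual, against the mean of the 2 group means in log2 CPM. Red genes were called higher and blue genes lower at an adjusted p under 0.05, and called decreases are mostly smaller than called increases.

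Of the genes with at least median expression, the largest increase was that of Chil3, a chitinase-like protein of monocytes and macrophages. It had 3.22 to 7.44 log2 CPM in triple tumours, median 5.94, and 1.38 to 4.37 in dual tumours, median 3.48, and rose by 2.55 ± 0.52 (adjusted p = 0.00534). Only the lowest triple tumour lay below the dual median. The others of the 12 largest increases included Sned1, a matrix protein (2.14 ± 0.56), Tnxb, a tenascin of connective tissue (2.01 ± 0.63), and Cxcl12, a chemokine made by fibroblasts and endothelium (1.86 ± 0.58). They also included Htra3, a secreted serine protease (1.82 ± 0.48), Loxl1, which crosslinks elastin (1.63 ± 0.59), and Plpp3, a lipid phosphatase (1.61 ± 0.55). Of genes typical of leukocytes there were Ly6c2 of inflammatory monocytes (1.77 ± 0.51), Clec12a, an inhibitory lectin of myeloid cells (1.65 ± 0.33), and the killing genes Gzmb and Prf1, described with their group. The last was H19, an imprinted non-coding RNA abundant in embryonic and regenerating tissue (1.75 ± 0.38). The adjusted p of these genes ranged up to 0.0498 (Loxl1). Without any 1 of 12 tumours Loxl1 lost its call, Plpp3 without any 1 of 9, Tnxb without T_352_S48, T_353_S45, T_355_S43 or D_344_S33, and Cxcl12 without any of the first 3 of these. In the 3 triple tumours not rich in muscle reads Sned1 differed from dual by 0.53, Tnxb by 0.39, Cxcl12 by 0.42 and Plpp3 by 0.15.

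The largest decreases were of another kind. Cxcl1, a chemokine that attracts neutrophils through CXCR2, had 3.96 to 5.82 log2 CPM in triple tumours, median 4.99, and 4.96 to 7.06 in dual tumours, median 6.52. It fell by 1.35 on the log2 scale (SE 0.40, adjusted p = 0.0213) and lay below the dual median in all 8 triple tumours. Mmp3, a stromelysin that degrades matrix, had 8.52 to 10.3 log2 CPM in triple tumours, median 9.41, and 10.1 to 10.6 in dual tumours, median 10.4, with a difference of -0.96 ± 0.18 (adjusted p = 0.00471). Il1rl1, the receptor of interleukin-33, differed by -0.95 ± 0.24 (adjusted p = 0.0113), Dkk2, a modulator of Wnt signalling, by -1.15 ± 0.28, and Dusp9, a phosphatase of MAP kinases, by -0.95 ± 0.26. Msln, which encodes the surface protein mesothelin, differed by -1.14 ± 0.36 and lost its call without any 1 of 6 tumours. Rps6ka6, a ribosomal S6 kinase, fell by 1.16 (SE 0.28), and Pgbd5, a transposase-derived gene, by 1.18 (SE 0.35). Hbb-bs, a beta-globin gene of red cells that can share reads with its near copy Hbb-bt, differed by -1.51 ± 0.46. In the 3 triple tumours not rich in muscle reads Pgbd5 differed by -0.18, Msln by -0.17 and Dusp9 by -0.30. Il1rl1 differed there by -0.36, Dkk2 by -0.45, Rps6ka6 by -0.46 and Mmp3 by -0.59, against -1.15 for Cxcl1 and -2.42 for Hbb-bs. With the triple and dual tumours fitted alone by limma, Dusp9, Msln, Pgbd5 and Hbb-bs lost their calls (adjusted p from 0.062 to 0.0782). Fdps of sterol synthesis and Rpl22l1, a ribosomal protein paralogue, are described with their groups.

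In 49 genes every triple tumour was above every dual tumour (0.262% of genes), and in 40 every triple tumour was below (0.214%). The widest gap among the increases was that of Ppl, which encodes periplakin, a cytolinker of the epidermal cornified envelope. Ppl (GRCm39 chromosome 16) had 1.95 to 4.10 log2 CPM in triple tumours, median 2.41, against -0.61 to 0.58 with a median of 0.09 in dual tumours. It rose by 2.63 ± 0.29 (adjusted p = 5.5e-05), and vehicle tumours, at -1.0 to 0.52, lay with the dual tumours. Ppl kept its call with the muscle score as covariate (2.36, adjusted p = 0.00195) and in the 3 triple tumours not rich in muscle reads (2.30, adjusted p = 0.0208).

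Other genes without overlap among the increases included Dbp, a clock-controlled transcription factor, at 1.46 ± 0.25 (adjusted p = 0.00384), Dmkn, an epidermal secreted protein, at 2.73 ± 0.59 (adjusted p = 0.00636), and Tnnt1, the troponin T of slow muscle, at 2.27 ± 0.37 (adjusted p = 0.00355). Dmkn is one of the keratinocyte genes whose share of reads is given above. Among the decreases the widest gap was that of Tm4sf1, a tetraspanin-like surface protein of tumour and endothelial cells. It had 5.98 to 7.32 log2 CPM in triple tumours, median 7.03, and 7.62 to 8.10 in dual tumours, median 7.87, with a difference of -0.94 ± 0.16 (adjusted p = 0.00384). Foxf1, a transcription factor of lung and vascular mesenchyme, differed by -0.79 ± 0.15 (adjusted p = 0.00444), Snhg9, a small nucleolar RNA host gene, by -1.12 ± 0.25 (adjusted p = 0.00673), and Rad52, a factor of homologous recombination, by -0.42 ± 0.08 (adjusted p = 0.00444).

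Besides Ppl, the genes called with the muscle score as covariate included 4 others that were higher and 3 that were lower. Serpinb10, a serine protease inhibitor of haematopoietic cells, had -1.35 to 2.60 log2 CPM in triple tumours, median 0.90, and -3.42 to -1.28 in dual tumours, median -2.48, with some overlap. It rose by 3.16 ± 0.41 (adjusted p = 0.000337), and by 2.68 with the covariate (adjusted p = 0.00996). The others higher were Inpp5j, an inositol phosphatase (1.72 with the covariate), Prxl2a, a peroxiredoxin-like protein (1.27), and Crybb1, a beta-crystallin (2.77). Crybb1 was near the detection limit, at -2.73 to -0.37 log2 CPM in triple and -5.24 to -2.68 in dual tumours. The 3 that were lower were Ccl22, Mgl2 and Car3, a carbonic anhydrase of muscle and fat. Car3 had no call without the covariate (0.38 ± 0.44, adjusted p = 0.550) and a difference of -0.77 with it (adjusted p = 0.0275).

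Several genes of mature dendritic cells were lower in triple tumours. Dendritic cells take up antigen, and after activation they mature, gain the lymph node homing receptor CCR7 and present antigen to T cells. Of 10 measured mature dendritic cell genes 6 fell and none rose, and the list median was -0.55, against -0.004 over all genes. Ccl22, a chemokine of mature dendritic cells that attracts CCR4-bearing T cells, had -0.26 to 1.63 log2 CPM in triple tumours, median 0.71, against 1.77 to 4.36 with a median of 3.06 in dual tumours. The groups did not overlap, and 4 dual tumours lay between 3.87 and 4.36 while the other 4 lay between 1.77 and 2.26. It differed by -2.5 ± 0.37 (adjusted p = 0.00180), by -2.59 with the muscle score as covariate (adjusted p = 0.00996) and by -2.55 in the 3 triple tumours not rich in muscle reads (adjusted p = 0.0993). Ccr7 itself had 0.35 to 3.44 log2 CPM in triple tumours, median 1.83, and 2.38 to 4.36 in dual tumours, median 3.66. It fell by 1.70 on the log2 scale (SE 0.34, adjusted p = 0.00531), with overlap only through T_352_S48 and T_354_S47.

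Cd83, a maturation marker, differed by -0.87 ± 0.19 (adjusted p = 0.00636) and Tnfrsf9, the co-stimulatory receptor 4-1BB, by -0.71 ± 0.15 without overlap (adjusted p = 0.00595). Il12b, the shared chain of interleukins 12 and 23, had -5.01 to 1.15 log2 CPM in triple tumours, median -0.63, and -1.14 to 2.15 in dual tumours, median 0.62. It fell by 1.83 (SE 0.63, adjusted p = 0.0411), and Fscn1, an actin bundler of dendrites, by 0.40 (SE 0.14, adjusted p = 0.0483). Both lay above the dual median in 2 triple tumours, and both calls were lost without any 1 of several tumours, 8 for Il12b (highest adjusted p = 0.0779) and 13 for Fscn1 (0.114). Of the 4 members that did not pass, Relb, an NF-kappaB subunit of mature dendritic cells, differed by -0.17 ± 0.10 (adjusted p = 0.225). The other 3, the co-stimulatory genes Cd40, Cd80 and Cd86, had positive differences of up to 0.55. The list median was -0.44 with the muscle score as covariate and -0.57 in the 3 triple tumours not rich in muscle reads, and the triple and dual tumours fitted alone called 4 members lower. Fscn1, Il12b, Tnfrsf9 and Ccr7 are also expressed outside dendritic cells.

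Mgl2, a lectin of type 2 dendritic cells and alternatively activated macrophages, had the largest fall among the named genes. It had -3.67 to 0.08 log2 CPM in triple tumours, median -2.37, against -1.28 to 2.37 with a median of 1.05 in dual and 2.06 to 4.69 in vehicle tumours. Every triple tumour was below the dual median, with overlap between T_331_S44, T_352_S48 and the lowest dual tumour. It differed by -3.07 ± 0.50 (adjusted p = 0.00355), and by -3.24 with the muscle score as covariate (adjusted p = 0.0244). Mgl2 can share reads with its close relative Clec10a. In the list of 10 type 2 dendritic cell genes Mgl2 and Ccl22 fell and 3 genes rose, with a list median of 0.62.

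**Figure D3:**
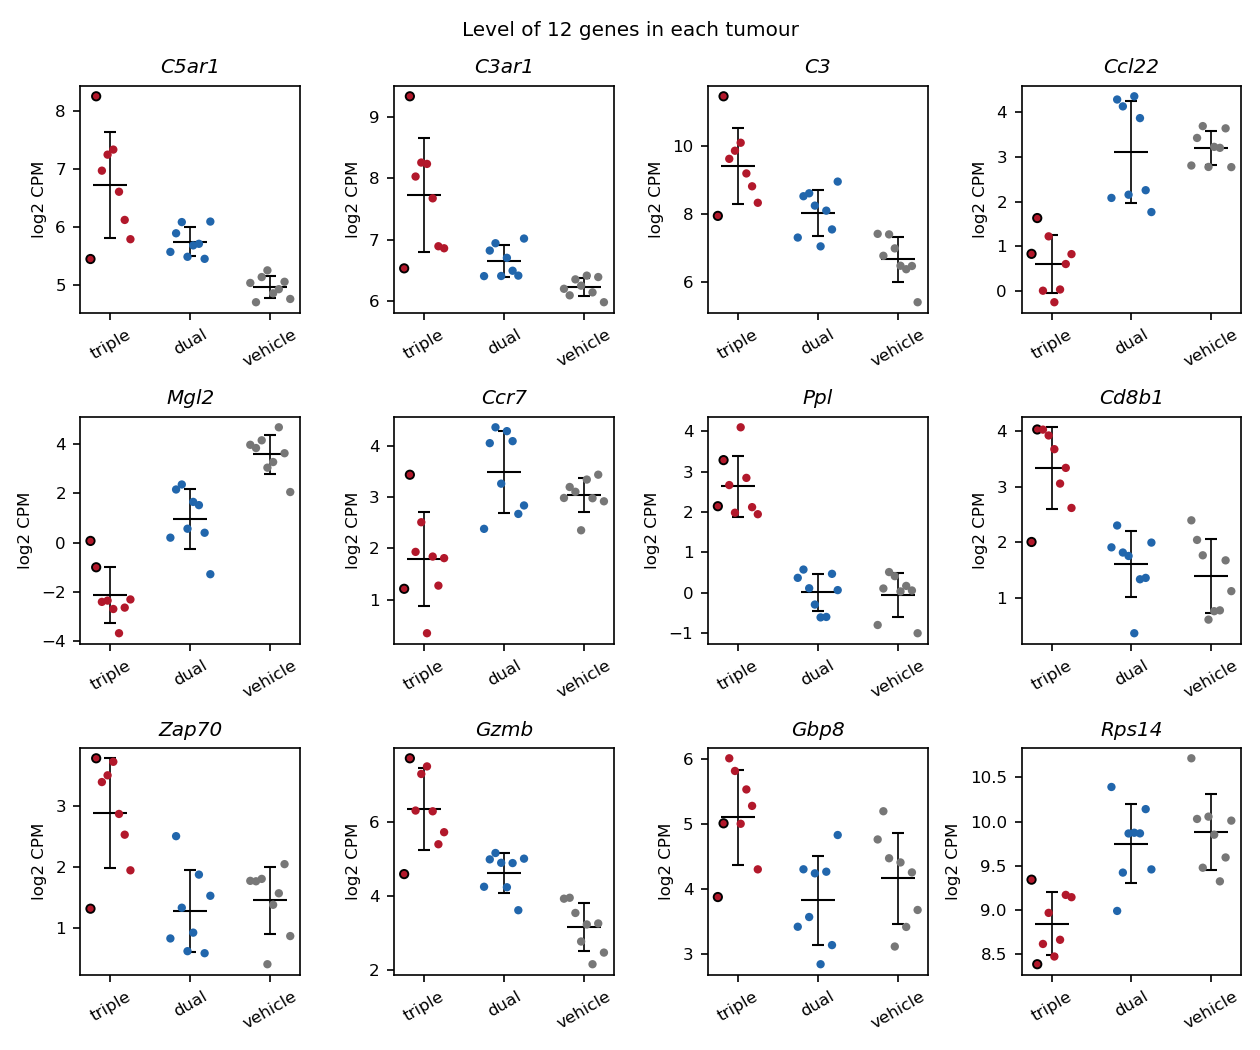
Level of 12 genes in log2 CPM in each triple, dual and vehicle tumour, with the group mean and SD (n = 8). Black outlines mark T_331_S44 and T_352_S48. Ppl separates the triple tumours upward and Ccl22 downward with no overlap with dual tumours, while C5ar1, C3ar1 and C3 spread widely in triple tumours.

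T cell genes were higher in triple tumours. Cd8b1, a chain of the CD8 co-receptor of killer T cells, had 2.0 to 4.03 log2 CPM in triple tumours, median 3.50, and 0.36 to 2.30 in dual tumours, median 1.78. It lay above the dual median in all 8 triple tumours and rose by 1.73 ± 0.32 (adjusted p = 0.00444). Of 10 CD8 T cell genes 9 rose (median 1.40), as did 9 of 10 CD3 and T cell receptor constant genes (1.12) and 15 of 16 T cell receptor signalling genes (1.15). Cxcr6, a chemokine receptor of tissue effector T cells, rose by 1.61 ± 0.29 (adjusted p = 0.00425), and Zap70, the kinase recruited to the T cell receptor, by 1.6 ± 0.34 (adjusted p = 0.00574). With the muscle score as covariate the medians of these lists were 0.67, 0.54 and 0.70, with no member called, and in the 3 triple tumours not rich in muscle reads 0.44, 0.26 and 0.41. The triple and dual tumours fitted alone called 7 CD8, 4 CD3 and 10 signalling genes. The CD8 gene that did not rise differed by -0.84 and was not called in the fit of all tumours. Eomes is counted both in the CD8 list and in the natural killer cell list.

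Cd4 and Foxp3 did not pass the test. Cd4, the co-receptor of helper T cells, had 1.06 to 3.90 log2 CPM in triple tumours, median 2.16, and 1.64 to 3.35 in dual tumours, median 2.49, and differed by -0.17 ± 0.32 (adjusted p = 0.726). Foxp3, the lineage factor of regulatory T cells, differed by 0.07 ± 0.35 (adjusted p = 0.895), and the groups overlapped fully for both. Among 10 regulatory T cell genes none rose and 1 fell (median -0.05), a share of decreases near the 9.97% of all genes. Of 6 T helper cytokine genes 2 rose, Ifng and Tnf (median 1.0). Of 16 checkpoint and exhaustion genes 3 rose, while 11.4% of all genes were called higher. The list median was 0.48, or 0.027 with the muscle score as covariate and -0.025 in the 3 triple tumours not rich in muscle reads. The one of the 3 called genes with the smallest p was Havcr2, which encodes the inhibitory receptor TIM-3 of T cells and myeloid cells. Havcr2 had 4.71 to 6.25 log2 CPM in triple tumours, median 5.82, and 4.35 to 5.12 in dual tumours, median 4.76, and rose by 1.03 ± 0.18 (adjusted p = 0.00425). Pdcd1, the PD-1 gene, differed by 0.43 ± 0.29 (adjusted p = 0.271), Lag3 by 0.71 ± 0.27 (adjusted p = 0.0629) and Tigit by 0.39 ± 0.26 (adjusted p = 0.283).

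Killing genes also rose. Of 15 granule and killing genes 8 rose and 1 fell (median 1.43, or 0.91 with the muscle score as covariate and 0.60 in the 3 triple tumours not rich in muscle reads). Gzmb, the main granzyme of killer lymphocytes, had 4.60 to 7.72 log2 CPM in triple tumours, median 6.30, and 3.62 to 5.16 in dual tumours, median 4.90, and rose by 1.72 ± 0.37 (adjusted p = 0.00607). Prf1, the pore-forming perforin, rose by 1.6 ± 0.40 (adjusted p = 0.0102), and Gzma, a further granzyme, by 2.47 ± 0.56 (adjusted p = 0.00750). Only T_331_S44 lay below the dual median for any of the 3. Neighbouring granzymes have similar sequences and may share reads. Of 13 natural killer cell genes 8 rose and 1 fell (median 1.34), among them Ncr1, the activating receptor NKp46 (1.85 ± 0.50, adjusted p = 0.0151), and Klrb1c, which encodes NK1.1 (1.77 ± 0.46, adjusted p = 0.0132). Their median was 0.45 with the covariate and 0.01 in the 3 triple tumours not rich in muscle reads, and the triple and dual tumours fitted alone called 2 higher.

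Interferon-gamma and the genes it controls were higher. Interferon-gamma is made by activated T and natural killer cells and induces guanylate-binding proteins, immunity-related GTPases and antigen presentation genes. Its response element in promoters is the gamma-activated site, whose letters TTCNNNGAA read alike on both strands. Of the 25 interferon-gamma response genes, 15 have a promoter window of 300 bases in RefSeq's table (build GRCm38.p6, 250 bases before to 50 after the start), and 8 of these hold the motif (53.3%), against 8.30% of all 32851 windows. The 3 called genes with the motif and the smallest p are shown over 100 bases, 5′ to 3′ on the gene's strand, with the motif in capitals: Irf8 at chr8:120736142-120736241 (plus strand), Tgtp2 at chr11:49064239-49064338 (minus strand) and Gbp5 at chr3:142496684-142496783 (plus strand).
Irf8: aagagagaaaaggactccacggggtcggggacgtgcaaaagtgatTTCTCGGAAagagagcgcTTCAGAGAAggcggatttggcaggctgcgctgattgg
Tgtp2: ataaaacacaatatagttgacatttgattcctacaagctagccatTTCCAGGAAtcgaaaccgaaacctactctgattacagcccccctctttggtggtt
Gbp5: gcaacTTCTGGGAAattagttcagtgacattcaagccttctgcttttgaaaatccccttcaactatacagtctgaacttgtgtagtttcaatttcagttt
Counting a gene when any of its windows held it, the motif stood in 9.54% of genes that rose and 9.10% of genes that fell. Of all measured genes with a window, 8.29% held it. A match describes the letters of a promoter, and binding was not measured. Other motifs were searched on both strands in the same windows. The kappa B letters GGGNNTTCC stood in 1 of 5 mature dendritic cell genes (8.33% of measured genes, 5.82% of all windows). The sterol response letters TCACNCCAC stood in 1 of 9 sterol genes (1.37% of measured genes, 1.24% of all windows). The pyrimidine stretch CTTTCC stood in 17 of 32 ribosomal protein genes, or 53.1%, against 30.7% of measured genes and 26.6% of all windows.

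Of the 25 genes 16 rose and none fell (median 0.88). The median was 0.53 with the muscle score as covariate and 0.52 in the 3 triple tumours not rich in muscle reads. Ifng itself had -0.01 to 2.45 log2 CPM in triple tumours, median 1.29, and -3.42 to 0.64 in dual tumours, median -0.49. It stood above the dual median in all 8 triple tumours and rose by 1.94 ± 0.48 (adjusted p = 0.0107). Irf8, a transcription factor of monocytes, dendritic cells and the interferon response, had 5.33 to 7.54 log2 CPM in triple tumours, median 6.71, and 4.94 to 6.01 in dual tumours, median 5.59. It rose by 1.05 ± 0.23 (adjusted p = 0.00598), Tgtp2, an immunity-related GTPase, by 1.06 ± 0.29 (adjusted p = 0.0163), and Gbp5, a guanylate-binding protein that promotes inflammasome assembly, by 0.99 ± 0.32 (adjusted p = 0.0302). Gbp8, a further member of that family, rose by 1.27 ± 0.33 (adjusted p = 0.0119). Irf1, a transcription factor induced early by interferon-gamma, rose by 0.41 ± 0.14 (adjusted p = 0.0414). Gbp5 lost its call without any 1 of 6 tumours and Irf1 without any 1 of 10. Members of the Gbp and Tgtp families resemble each other and may share reads.

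The receptor chain Ifngr1 rose by 0.71 ± 0.16 (adjusted p = 0.00691). Among 18 class I antigen presentation genes 9 rose (median 0.56). The one with the smallest p was Tap2, a peptide transporter subunit, which had 6.88 to 7.68 log2 CPM in triple tumours, median 7.40, and 6.50 to 6.96 in dual tumours, median 6.78. Tap2 rose by 0.57 ± 0.11 (adjusted p = 0.00516), and Nlrc5, the transactivator of class I genes, by 0.63 ± 0.17 (adjusted p = 0.0151). The chemokines Cxcl9 and Cxcl10, also induced by interferon-gamma, differed by 0.58 ± 0.39 (adjusted p = 0.281) and -0.13 ± 0.35 (adjusted p = 0.800). Type I interferon response genes, which poly I:C induces, had 1 increase in 30 (median 0.23, or -0.08 with the muscle score as covariate), a share of increases below the 11.4% of all genes.

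Genes of monocytes and macrophages were higher, and the ligand Ccl2 was lower. Of 21 macrophage genes 11 rose (median 0.93) and of 12 monocyte genes 5 rose (median 0.96), with none falling. Csf1r, the receptor on which macrophages depend for survival, had 6.55 to 9.51 log2 CPM in triple tumours, median 7.82, and 6.46 to 7.22 in dual tumours, median 6.62, and rose by 1.16 ± 0.26 (adjusted p = 0.00750). Ccr2, the receptor that brings inflammatory monocytes out of the marrow, had 3.92 to 8.83 log2 CPM in triple tumours, median 7.04, and 4.93 to 5.72 in dual tumours, median 5.31, and rose by 1.40 ± 0.41 (adjusted p = 0.0206). The lowest value of Ccr2 was that of T_331_S44, below all dual tumours, and the other 7 triple tumours lay above the dual median. Its ligand Ccl2 had 7.78 to 8.92 log2 CPM in triple tumours, median 8.24, and 8.48 to 9.25 in dual tumours, median 8.99. It differed by -0.65 ± 0.17 (adjusted p = 0.0119) and lay below the dual median in all 8 triple tumours. The macrophage and monocyte medians were 0.48 and 0.46 with the muscle score as covariate and 0.13 and 0.18 in the 3 triple tumours not rich in muscle reads.

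Among other myeloid genes, Tlr7, an endosomal sensor of single-stranded RNA, rose by 1.19 ± 0.26 (adjusted p = 0.00620). Of 15 double-stranded RNA and Toll-like sensor genes 9 rose (median 0.79). That median was 0.353 with the muscle score as covariate and 0.145 in the 3 triple tumours not rich in muscle reads. In the fit of the triple and dual tumours alone 2 sensor genes were called higher. Cybb, the catalytic subunit of the phagocyte oxidase, rose by 1.18 ± 0.26 (adjusted p = 0.00703) and Tgfb1, an immunosuppressive growth factor, by 0.62 ± 0.12 (adjusted p = 0.00470). The median of 13 suppressive myeloid genes was 0.44, against 0.28 with the covariate and -0.01 in the 3 triple tumours not rich in muscle reads. Of these 13 genes, which include Cybb and Tgfb1, 3 rose and 2 fell. Of those that fell, Spp1, which encodes osteopontin, differed by -0.53 ± 0.18 (adjusted p = 0.0383), and Il4i1, an amino acid oxidase, by -0.67 ± 0.23 (adjusted p = 0.0372). Of 21 lysosome genes 13 rose and 1 fell. Their median was 0.53, or 0.34 with the covariate and 0.14 in the 3 triple tumours not rich in muscle reads. In the fit of the triple and dual tumours alone 7 lysosome genes were called higher and 1 lower. While 9.97% of all genes fell, neutrophil genes showed 0 increases and 1 decrease among 17 (median -0.10). The one was Ly6g, the neutrophil surface marker, at -1.29 ± 0.46 (adjusted p = 0.0446), with -0.68 to 1.21 log2 CPM in triple tumours, median 0.25, and 0.65 to 1.97 in dual tumours, median 1.81. S100a8, an abundant calcium-binding protein of neutrophils, differed by -0.78 ± 0.40 (adjusted p = 0.154). Without any 1 of 13 tumours Ly6g lost its call, Spp1 without any 1 of 8 and Il4i1 without any 1 of 9 (highest adjusted p = 0.0912, 0.0850 and 0.0734).

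**Figure D4:**
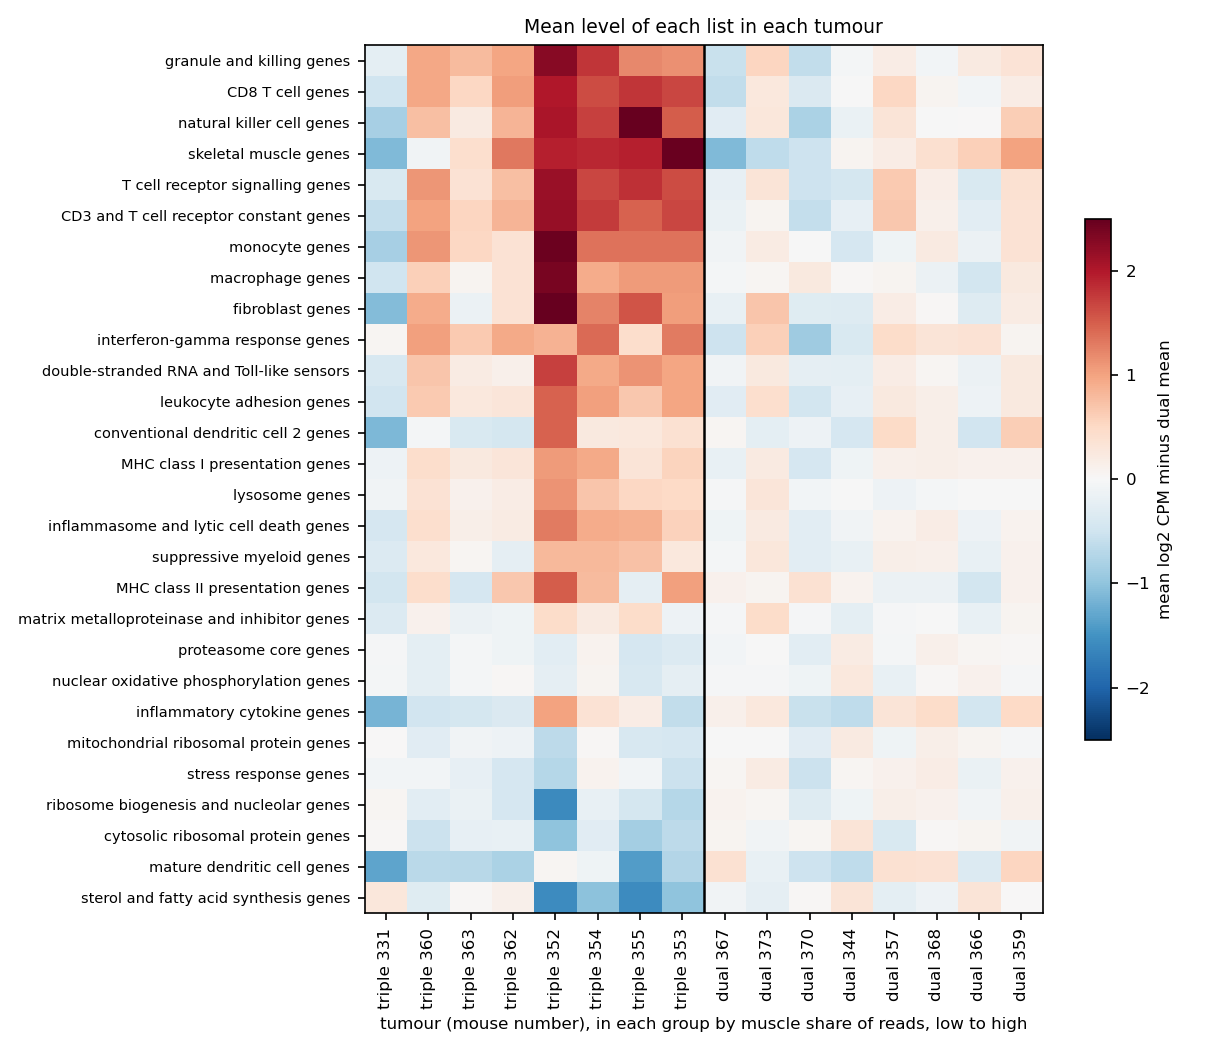
Mean level of each gene list with at least 5 called members, in log2 CPM minus the mean of the dual tumours, in each triple and dual tumour. Tumours run from low to high muscle share of reads within each group. T_331_S44 is at or below the level of the dual tumours in the T cell, monocyte and macrophage lists, and its mature dendritic cell level is below all of theirs.

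Ribosomal protein genes fell together. Ribosomal proteins form the translation machinery, and their genes are coordinately controlled. Of 43 cytosolic ribosomal protein genes 39 fell and none rose (median -0.44), as did 12 of 18 ribosome biogenesis and nucleolar genes (-0.43) and 10 of 28 mitochondrial ribosomal protein genes (-0.23). Rps14, a small subunit protein, had 8.39 to 9.35 log2 CPM in triple tumours, median 8.82, and 8.99 to 10.4 in dual tumours, median 9.87, and differed by -0.90 ± 0.19 (adjusted p = 0.00598). Rpl22, a large subunit protein, had 7.72 to 8.28 log2 CPM in triple tumours, median 8.10, and 8.17 to 9.02 in dual tumours, median 8.59, with a difference of -0.54 ± 0.10 (adjusted p = 0.00471). Its paralogue Rpl22l1 differed by -1.05 ± 0.19 (adjusted p = 0.00425). All 3 were below the dual median in all 8 triple tumours. Dkc1, the pseudouridine synthase of nucleolar particles, differed by -0.59 ± 0.16 (adjusted p = 0.0162), Rrp9, a nucleolar processing factor, by -0.77 ± 0.19 (adjusted p = 0.0112), and Mrpl12, of the mitochondrial ribosome, by -0.72 ± 0.17 (adjusted p = 0.00810).

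The ribosomal list median was -0.28 with the muscle score as covariate and -0.18 in the 3 triple tumours not rich in muscle reads. The triple and dual tumours fitted alone called 14 ribosomal and 1 nucleolar gene lower. Ribosomal protein genes have many processed pseudogenes that can share their reads. Of 25 proteasome core genes 7 fell (median -0.18, for example Psma7 at -0.44 ± 0.12, adjusted p = 0.0153), and of 29 nuclear oxidative phosphorylation genes 5 fell (median -0.19, for example Ndufa4 at -0.55 ± 0.10, adjusted p = 0.00425). After centring on the median gene 16 genes of each of these lists were called lower. The 11 mitochondrially encoded genes had no call in either direction (median -0.02), and of 29 replication and mitosis genes 1 fell (median -0.09).

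Sterol synthesis genes were also lower. These genes of the mevalonate pathway are switched on by the factor SREBP2 when cells lack sterol. Of 17 sterol and fatty acid synthesis genes 8 fell and none rose (median -0.58). Fdps, which makes farnesyl diphosphate, had 1.98 to 4.80 log2 CPM in triple tumours, median 3.52, and 3.98 to 5.18 in dual tumours, median 4.49, and differed by -0.99 ± 0.31 (adjusted p = 0.0273). It lay above the dual median in 2 triple tumours. Cyp51, a sterol demethylase, differed by -0.95 ± 0.28 (adjusted p = 0.0220) and Srebf2, which encodes SREBP2, by -0.56 ± 0.17 (adjusted p = 0.0234). Without T_352_S48 or T_353_S45 the calls of Fdps, Cyp51 and Srebf2 were lost (highest adjusted p = 0.0635). The list median was -0.25 with the muscle score as covariate and 0.01 in the 3 triple tumours not rich in muscle reads, and the triple and dual tumours fitted alone called no member by limma.

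**Figure D5:**
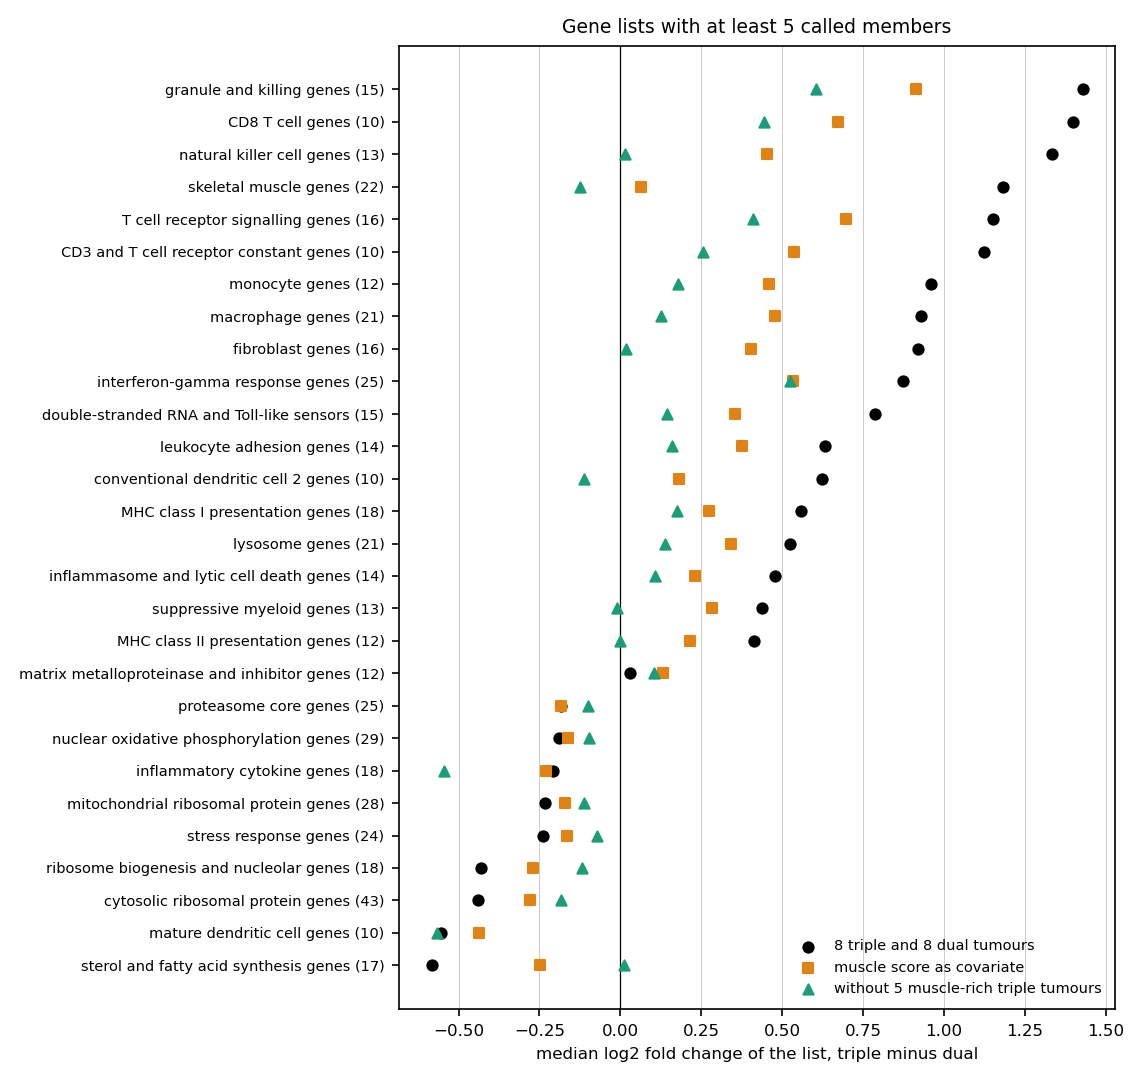
Median log2 fold change, triple minus dual, of each list with at least 5 called members, with the number of genes measured in brackets. Black circles use 8 triple and 8 dual tumours, orange squares the muscle score as covariate, and green triangles the 3 triple tumours not rich in muscle reads. The mature dendritic cell list is at -0.55, -0.44 and -0.57, while the sterol list is at -0.58, -0.25 and 0.01.

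Some genes of muscle, fibroblasts and keratinocytes were higher in triple tumours. Of 22 skeletal muscle genes 10 rose and none fell (median 1.18, or 0.06 with their own score as covariate). Actn3, an actinin of fast muscle fibres, had 3.54 to 6.24 log2 CPM in triple tumours, median 5.15, and 1.87 to 4.60 in dual tumours, median 3.52, and rose by 1.46 ± 0.35 (adjusted p = 0.00868). Casq1, the calcium store protein of muscle, rose by 1.45 ± 0.46 (adjusted p = 0.0280) and lost its call without any 1 of 4 tumours. Of 16 fibroblast genes 5 rose (median 0.92, or 0.02 in the 3 triple tumours not rich in muscle reads). Over all genes 11.4% were called higher. Of 26 collagen and matrix genes 1 rose (median 0.46), below that share. Keratinocyte genes had 3 increases among 10 (median 1.62). Here the median was larger with the muscle score as covariate (2.17) and in the 3 triple tumours not rich in muscle reads (2.45). Among those 3, T_360_S46 had the highest keratinocyte share of all. Relative to the dual mean, the list's mean level had a median of 1.34 in triple and 1.40 in vehicle tumours. Krt5 and Krt14 each had 0 reads in 4 triple tumours. Their medians were 2 and 1 reads in triple tumours, 0 in dual tumours, and 15 and 15.5 in vehicle tumours.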

How the data were processed

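Per the labels' protocols, RNA of each tumour was made into libraries with a stranded mRNA ligation kit. Per the submitters' processing notes the authors used STAR 2.7.9a and featureCounts 1.6.0 with build GRCm39, FastQC 0.11.8, and the R packages limma and edgeR; settings are not given in the sources used here. The authors deposited 1 table of log2 values, which fit log2 CPM on scaled library sizes with 0.5 reads added. With these sizes 100% of values give back a whole read number within 0.01. These reads were used for totals, shares and the fit with precision weights. Of 18723 genes 2701 had 0 reads in some tumour.

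Groups were taken from the labels. limma 3.58.1 (R 4.3.3) was fitted to the deposited values of all 24 tumours with 1 mean per group and a variance trend, with Benjamini-Hochberg adjustment over all genes; genes were called at an adjusted p under 0.05. It was checked on simulated data in which each gene had the same spread in every group. That check cannot show how the fit behaves with the unequal spread of these groups. The muscle share was compared with an exact permutation test. The muscle score is the mean of the list's values standardised over the 24 tumours. P-values measure the spread between these tumours, and that they came from separate mice rests on their mouse numbers.

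The lists (852 of 911 symbols in the table), genes and tests were chosen with earlier results of these data known. The text names the 12 largest increases and 12 largest decreases among calls at or above the median gene's expression, predicted names left out; some genes the rule picks are not reported here. It adds up to 3 called members with the smallest p of lists with at least 5 called, up to 8 genes per direction without overlap between groups, and genes given in advance. Chosen after their values were seen were 7 genes called with the muscle covariate (Serpinb10 to Car3), other members named to fill out a list (among them Masp1, Fscn1, Il12b, Cd83, Tgtp2 and Gbp5), and the clock genes. Alternatives were other variance models, weights, scalings, a filter at the 25th percentile, a Wilcoxon test, a stricter threshold, muscle or adipocyte covariates and leaving out tumours; 1 spread weight per group and both covariates together were added after seeing the data. Python 3.11.15 and matplotlib 3.10.9 drew the figures. Promoter windows came from RefSeq (GRCm38.p6) by symbol.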

Additional observations from a re-analysis of the deposited data

Results flagged for a closer look

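Each value here stood apart from the nearest of the other 7 tumours of its group by more than 0.526 of the group's range, in log2 CPM unless stated. Of 204 groups of values screened 15 were flagged, and chance flags about 1 in 20. Among triple tumours, T_352_S48 was highest in Dbp (5.30) and in the adipocyte share of reads (0.102%), and lowest in Dkc1 (5.11), Il1rl1 (7.19), Dusp9 (3.82) and Rad52 (3.61). T_353_S45 was lowest in Tnfrsf9 (4.77), T_331_S44 highest in Prxl2a (4.12), and T_360_S46 highest in the keratinocyte share of reads (0.0162%). Among dual tumours, D_370_S38 was lowest in Tigit (1.28) and Dkc1 (6.43) and highest in Ifngr1 (6.73). D_367_S35 was lowest in Ifng (-3.42), D_357_S37 highest in Pdcd1 (3.09), and D_373_S40 highest in Nr1d1 (6.05).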

How the results depend on the processing

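Counts of genes higher and lower in triple tumours, 11.4% and 9.97% of those tested, were within 1.5 times with robust or untrended variance, tumour weights, quantile normalization, the expression filter, precision weights on reads and 1 spread weight per group (added after seeing the data). They were 4.3% and 3.03% in the 16 tumours alone, 1.9% and 2.31% by exact Wilcoxon test, 2.35% and 1.76% at an adjusted p under 0.01, 0.032% and 0.016% with the muscle score, 4.87% and 3.49% with the adipocyte score, 2.3% and 1.63% with both scores (added after seeing the data), and 0.0107% and 0% without the 5 triple tumours rich in muscle reads, a fit with fewer samples. Centring gave 15.9% lower. Leaving out 1 tumour gave 7% to 19.2% higher and 5.77% to 16.4% lower, the counts moving by over 1.5 times without the triple tumour T_331_S44 (19.2% and 16.4%), T_352_S48 (7% and 6.2%) or T_353_S45 (7.17% and 5.77%), and the lower count also without the dual tumour D_344_S33 (6.37%). Where nothing is named, the cause was not tested. The muscle share difference kept its direction and call on the log2 scale, without its 10 most expressed markers and without each tumour (0.0616 to 0.0990 percentage points).

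None of the 87 called genes checked changed direction. With the triple and dual tumours fitted alone by limma, 27 of them lost their call. Among these were C3, Sned1, Htra3, Ly6c2, Ccr2, Cxcl12 and Tnxb, with adjusted p from 0.0509 (C3) to 0.0781 (Tnxb). Among uncalled genes, Hc was 0.40 with tumour weights and between -0.31 and 0.27 without 1 tumour, Cd4 between -0.39 and 0.02 and Cxcl10 between -0.33 and 0.04. Calls were gained by C5ar2 without T_331_S44 or T_362_S42, Lag3 without T_331_S44, D_357_S37 or D_373_S40, Relb with tumour weights or centring, and S100a8 with tumour weights or without T_355_S43. Foxp3 was -0.30 with tumour weights, -0.03 with centring, -0.22 with quantile normalization, -0.44, -0.29 and -0.37 with the muscle, adipocyte and both scores, -0.62 without muscle-rich tumours and between -0.13 and 0.22 without 1 tumour. Car3 was -0.13 with tumour weights, -0.77, -0.20 and -0.74 with these scores and -1.12 without muscle-rich tumours. No paired analysis was possible because the groups share no mouse numbers. Low genes such as Il12b and Crybb1 rest on few reads.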

Other observations

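Dbp, the gene with the next widest gap after Ppl, led to a look at the other clock genes, 12 with Dbp, which were chosen after its values were seen. Of these 5 rose and none fell. Dbp had 3.88 to 5.30 log2 CPM in triple tumours, median 4.12, against 1.99 to 3.40 with a median of 3.0 in dual and 2.33 to 4.24 with a median of 3.63 in vehicle tumours. Per2 and Per3, repressors of the clock, rose by 0.80 ± 0.22 (adjusted p = 0.0176) and 0.62 ± 0.18 (adjusted p = 0.0214), and the repressor Nr1d1 by 0.76 ± 0.18 (adjusted p = 0.00921), each above the dual median in all 8 triple tumours. Bhlhe41, a further repressor, rose by 0.34 ± 0.12 (adjusted p = 0.0458) and lost its call without any 1 of 9 tumours. The 7 that did not pass the test were Per1 at -0.48 ± 0.20 (adjusted p = 0.0766), Nr1d2 at -0.10, Clock at -0.11, Arntl at -0.03, Cry1 at 0.004, Tef at 0.16 and Cry2 at 0.17. With the muscle score as covariate none of the 5 was called, with adjusted p between 0.0736 and 0.209.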
